A study of Mus musculus with 15 samples.

Results

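Transcripts of 9 genes that absorb, store and oxidise vitamin A and its precursors, or belong to the neighbouring alcohol dehydrogenases, are described here: Rbp2, Lrat, Scarb1, Bco1, Isx, Rdh7, Adh1, Adh6a and Aldh1a1. They were chosen by name, with earlier results of these data known, so their counts beside the shares of all genes are descriptive only. All 9 of 9 were found, with 1 transcript cluster each, among 19938 genes with a symbol on the arrays. The data are 15 Affymetrix Mouse Gene 1.0 arrays of RNA from isolated small intestinal epithelial cells of adult mice, with n = 3 arrays for each of 5 groups. These were wild-type CD1 ileum, wild-type CD1 jejunum, ileum labelled control, ileum of mice labelled Gata4 cKI (a conditional knockin) and jejunum of mice labelled Gata4 cKO (a conditional knockout). GATA4, a zinc finger factor, is made in duodenum and jejunum but hardly in distal ileum. The labels name no control jejunum for the cKO, and neither the Cre driver, the alleles, the strain of the last 3 groups nor an age more exact than adult is given in them. Whether arrays of a group came from separate animals is not given either. The p-values thus speak only for the spread among arrays, an unknown part of which may be technical.

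Vitamin A enters the enterocyte as retinol or is made there from carotenoids. Scarb1 encodes a scavenger receptor that takes up carotenoids, and Bco1 encodes the oxygenase that splits beta-carotene into retinal. Isx encodes a homeobox repressor of both that answers to retinoic acid. Rbp2 encodes the cytoplasmic retinol-binding protein of the enterocyte, and Lrat encodes the acyltransferase that makes retinyl esters for packing into chylomicrons. Rdh7 encodes a short-chain retinol dehydrogenase, Adh1 a medium-chain alcohol dehydrogenase that also accepts retinol, and Adh6a a less studied enzyme of the same family. Aldh1a1 encodes a retinal dehydrogenase that makes retinoic acid.

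Promoter sequence is shown because the study turns on a factor that binds GATA words. RefSeq promoters (GRCm38.p6, 250 bases before to 50 after each start site) matched 8 of 9 members, with 10 start sites in all. Scarb1 had no match. The words searched, on both strands, were AGATAA, its variant TGATAA, the form AGATAG with a final G, and the variant TGATAG of that form. A stretch of 100 bases is printed 5′ to 3′ on the strand of each gene, with GATA words in capitals on either strand. For Bco1 the capitals mark instead a direct repeat of the nuclear receptor half-site AGGTCA with 1 base between the copies (AGGTCANAGGTCA), here on the opposite strand. The stretches are chr9:98490437-98490536 for Rbp2, chr3:138277466-138277565 for Adh1, chr3:138313165-138313264 for Adh6a, chr19:20601868-20601967 for the second Aldh1a1 start and chr8:117095762-117095861 for Bco1, all on the plus strand, and chr3:82903975-82904074 for Lrat on the minus strand.
Rbp2: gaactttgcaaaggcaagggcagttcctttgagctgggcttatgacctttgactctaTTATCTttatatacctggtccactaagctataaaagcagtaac
Adh1: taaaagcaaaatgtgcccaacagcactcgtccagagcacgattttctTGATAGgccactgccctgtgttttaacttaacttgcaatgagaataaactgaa
Adh6a: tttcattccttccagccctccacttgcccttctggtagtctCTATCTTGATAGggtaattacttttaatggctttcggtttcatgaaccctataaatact
Aldh1a1: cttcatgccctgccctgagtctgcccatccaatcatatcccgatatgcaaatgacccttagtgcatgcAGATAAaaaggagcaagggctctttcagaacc
Lrat: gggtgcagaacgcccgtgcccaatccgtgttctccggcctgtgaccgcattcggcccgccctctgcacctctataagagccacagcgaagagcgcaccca
Bco1: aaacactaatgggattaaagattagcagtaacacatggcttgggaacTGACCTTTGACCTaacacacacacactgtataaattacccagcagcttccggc

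At least 1 GATA word lay in 6 of the 10 promoters, those of 5 of the 8 matched members, and in 29.8% of all 32851 promoters of that length. Adh6a held a pair of words that abut, from -80 to -69 relative to the start site. Adh1 held words at -150 to -145 and at -72 to -67, Rbp2 at -43 to -38, the second Aldh1a1 start at -193 to -188 and -32 to -27, and the first at 23 to 28. The second Rdh7 start held TGATAG at 19 to 24. No GATA word was found in these windows of Lrat, Bco1 or Isx. The direct repeat of Bco1, at -56 to -44, was shared by 13 of the 32851 promoters (0.0396%). The CDX word TTTATG was found in 11.9% of all promoters, and in those of Bco1 and the first Rdh7 start. AGGTCA was in 16.3% of all promoters and in those of Rbp2, Bco1 and the first Rdh7 start. GTTAAT, an HNF1 half-site, was in 7.10% of all promoters and in none of the 10. The direct repeats of AGGTCA with 2 or 5 bases between the copies were each in 0.0091% of all promoters, and also in none of the 10. Such matches describe letters, not binding.

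The arrays were close in overall level, with medians from 4.82 to 5.0 on the log2 scale, and their number limits the precision. Markers of epithelium averaged 11.3, 11.3, 11.3, 11.2 and 11.3 in wild-type ileum, wild-type jejunum, control, cKI and cKO, and all 10 of them exceeded 4.91, the median of all values, in every group. Single genes of that list still differed by limma. Against wild-type ileum, wild-type jejunum had 1 higher and 2 lower. Against wild-type jejunum, cKO had 3 higher and cKI had 3 higher and 3 lower. Alpi averaged 10.41, 12.09, 10.28, 10.32 and 11.44 in the order of groups above, and its part in the results was not tested. Stromal markers averaged 5.45 in wild-type ileum, 4.55 in wild-type jejunum, 5.93 in control, 5.24 in cKI and 4.97 in cKO, and leukocyte markers 5.76, 5.65, 6.32, 5.48 and 5.72. Gata4 read 5.99, 5.43 and 5.39 in wild-type ileum, 9.68, 9.45 and 9.47 in wild-type jejunum, 6.71, 7.22 and 6.53 in control ileum and 8.02, 8.43 and 8.17 in cKI ileum. It was higher in cKI than in control ileum by 1.38 ± 0.18 (limma, adjusted p = 0.00453, or 0.0524 when only those 6 arrays were fitted). In the arrays labelled cKO it read 9.72, 9.88 and 9.93, and thus no fall from wild-type jejunum was detected (difference 0.31 ± 0.18, limma, adjusted p = 0.322). Where its probes lie relative to the deleted part is not given in the sources used here, so the transcript does not check that label. The ileal bile acid binding gene Fabp6 read 12.88, 12.46 and 12.67 in the arrays labelled cKO, against 4.08, 4.93 and 4.18 in wild-type jejunum and 12.86, 12.58 and 12.59 in wild-type ileum. Slc10a2 averaged 10.79, 4.45 and 11.27 in the same order. Lct averaged 7.60, 11.86 and 4.72, and Fabp1 8.52, 11.95 and 3.76, so both stood between the wild-type regions in the arrays labelled cKO. Of the 5 region markers, Gata4 included, 2 were higher and 2 lower in cKI than in control ileum by limma.

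In the wild type, 7 of the 9 genes were higher in jejunum than in ileum, 1 was lower (Bco1) and 1 did not pass the test (Isx). A gene passed when its limma p, adjusted by Benjamini-Hochberg over the 11784 genes tested, was under 0.05, and differences are log2, first group minus second, ± the standard error of the fit. Of all genes tested, 21.3% passed in either direction, 13.4% as higher and 7.91% as lower. On every array of the jejunum the 7 genes lay above every array of the ileum, which held for 22.2% of all genes tested. In bulk samples fewer cells of a type and less RNA per cell cannot be told apart. Stromal markers were lower in jejunum for 7 of 9 tested, and their part in the results was not tested.

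**Figure D1:**
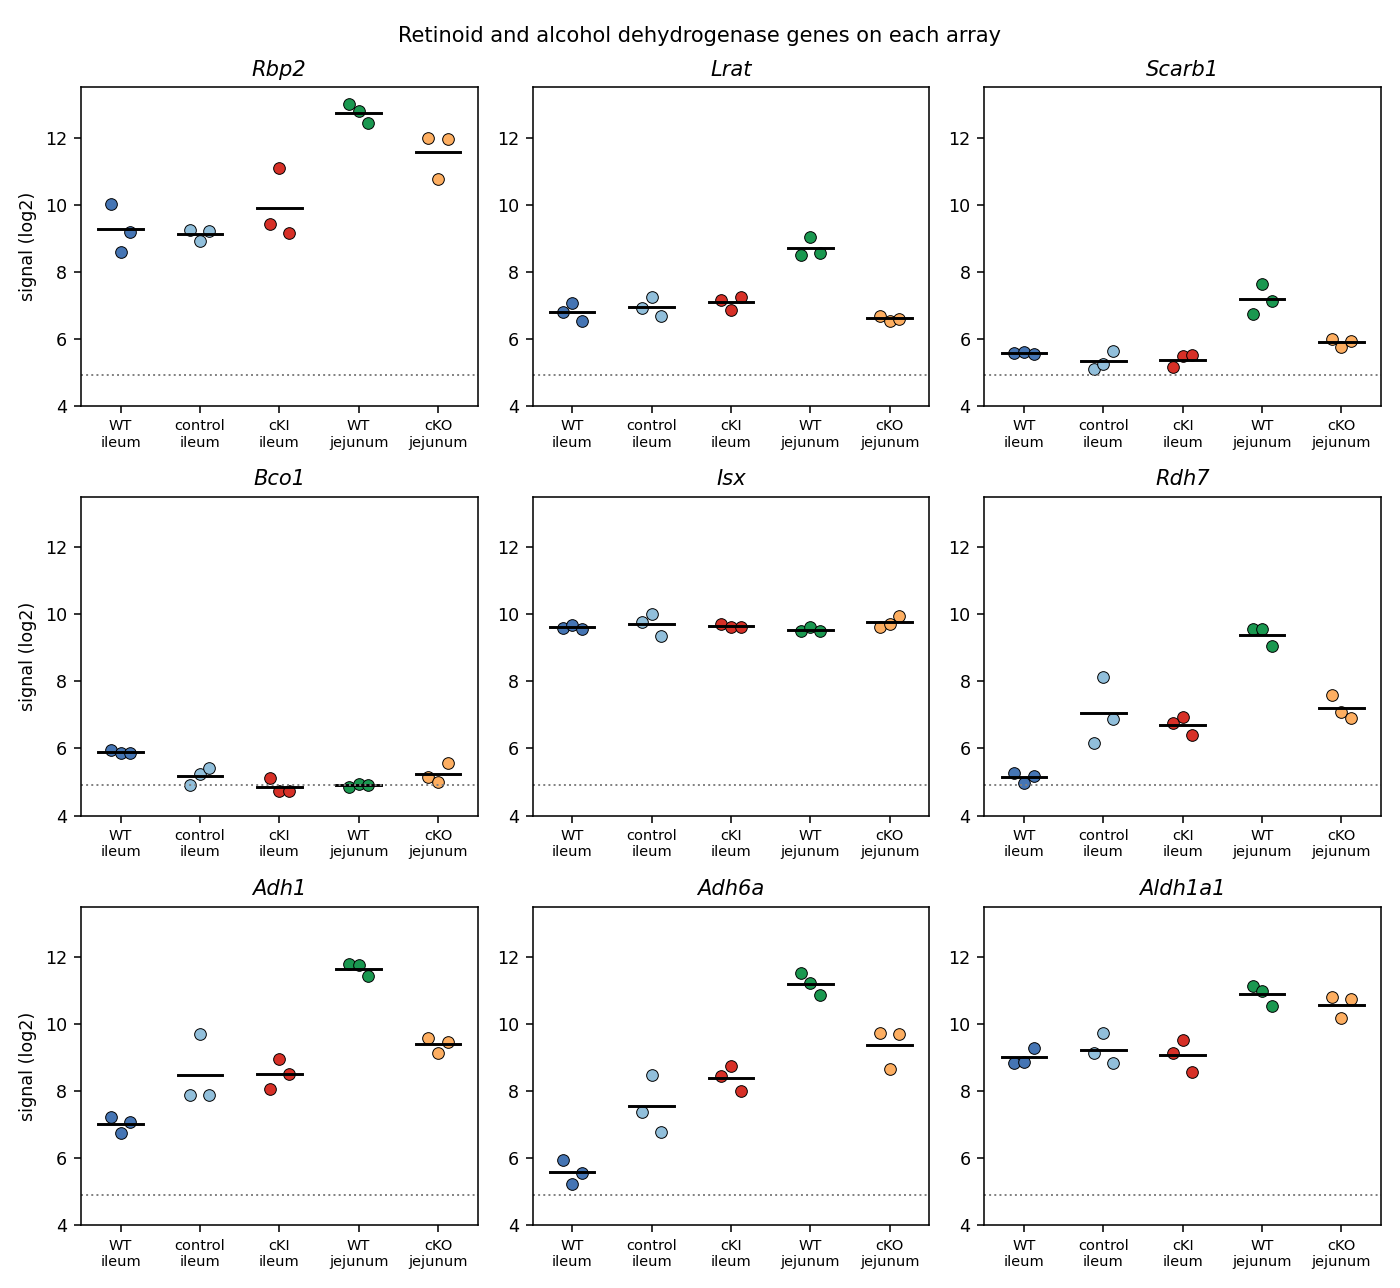
Log2 signal (y axis) of each gene on each array, by group (x axis). Points are arrays, bars are group means and the dotted line marks the level filter at 4.91. Lrat and Scarb1 in the arrays labelled cKO lie near the ileal groups. Aldh1a1, Rbp2 and Adh6a lie nearer there to wild-type jejunum than to wild-type ileum, Rdh7 and Adh1 lie about midway, and Isx is level throughout.

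Rbp2, the retinol carrier, read 12.99, 12.80 and 12.44 in wild-type jejunum and 10.03, 8.58 and 9.17 in wild-type ileum. The groups did not overlap, and the difference of 3.48 ± 0.46 is 11.2-fold (limma, adjusted p = 5.85e-05). Lrat, the esterifying enzyme, read 8.50, 9.04 and 8.57 in jejunum and 6.81, 7.08 and 6.52 in ileum. It was higher in jejunum by 1.90 ± 0.18, or 3.73-fold (limma, adjusted p = 2.4e-06).

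Scarb1, the carotenoid receptor, read 6.75, 7.63 and 7.14 in wild-type jejunum and 5.57, 5.61 and 5.54 in wild-type ileum, a difference of 1.60 ± 0.19 or 3.04-fold (limma, adjusted p = 1.98e-05). Bco1, the carotene-splitting enzyme, went the other way. It read 4.84, 4.95 and 4.90 in jejunum and 5.95, 5.85 and 5.85 in ileum, and was lower in jejunum by a log2 difference of -0.99 ± 0.16 (limma, adjusted p = 0.000334). Its jejunal mean of 4.90 lay under the level filter, so no fold is given, and even in ileum it stood only about 1 log2 unit above that filter. Goblet cell markers fell with it in jejunum: their mean was 11.7 in wild-type ileum and 10.98 in wild-type jejunum, with 5 of 6 lower, and their part in the Bco1 difference was not tested. Isx, the repressor, read 9.49, 9.63 and 9.50 in jejunum and 9.58, 9.68 and 9.57 in ileum. Its difference of -0.07 had a 95% interval from -0.37 to 0.23 (limma, adjusted p = 0.799), so the transcripts of the receptor and the oxygenase differed by region in opposite directions while no regional difference was detected for Isx.

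Of the oxidising enzymes, Rdh7, Adh1 and Adh6a had larger regional differences than the other members. Rdh7 read 9.56, 9.55 and 9.07 in wild-type jejunum and 5.28, 4.96 and 5.17 in wild-type ileum, a difference of 4.26 ± 0.35 or 19.2-fold (limma, adjusted p = 7.16e-07). Adh1 read 11.78, 11.77 and 11.42 in jejunum and 7.23, 6.75 and 7.09 in ileum, a difference of 4.63 ± 0.38 or 24.8-fold (limma, adjusted p = 6.13e-07). Adh6a had the largest difference of the 9 genes. It read 11.52, 11.23 and 10.88 in jejunum and 5.95, 5.24 and 5.56 in ileum, and was higher by 5.63 ± 0.38 or 49.5-fold (limma, adjusted p = 8.17e-08). Aldh1a1, the retinal dehydrogenase, read 11.13, 11 and 10.55 in jejunum and 8.85, 8.87 and 9.30 in ileum. Its difference of 1.89 ± 0.27, or 3.70-fold (limma, adjusted p = 0.000103), was close to that of Lrat.

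The knockin asks whether these genes move when Gata4 is expressed in the ileum. None of the 9 passed the test between cKI and control ileum, where 0.764% of all genes tested passed (90 genes, by limma), and 1 had an unadjusted p under 0.05. That gene was Adh6a, which read 8.46, 8.74 and 8.01 in cKI and 7.39, 8.47 and 6.78 in control ileum. Its groups overlapped, and the difference of 0.85 had a 95% interval from 0.05 to 1.66 (limma, adjusted p = 0.308). With array weights the difference was 1.27 and passed (limma, adjusted p = 0.029), and without the second control array it was 1.32 and did not (adjusted p = 0.123).

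Rbp2 was high on a single cKI array, at 9.43, 11.10 and 9.15 against 9.25, 8.92 and 9.21 in control ileum, a difference of 0.77 with an interval from -0.21 to 1.75 (limma, adjusted p = 0.445). Lrat read 7.16, 6.86 and 7.23 in cKI and 6.92, 7.24 and 6.68 in control, which overlapped, with a difference of 0.14 and an interval from -0.25 to 0.52. Scarb1 read 5.16, 5.47 and 5.50 in cKI and 5.10, 5.24 and 5.63 in control, with an interval from -0.35 to 0.46. The upper bounds of all 3 genes lay under their regional differences. Bco1 read 5.11, 4.73 and 4.72 in cKI and 4.91, 5.24 and 5.43 in control. The mean cKI level of Bco1, 4.85, was under the level filter, and its difference of -0.34 had an interval from -0.68 to 0.00076 (limma, adjusted p = 0.326). Isx read 9.71, 9.63 and 9.61 in cKI and 9.77, 10.01 and 9.35 in control, with an interval from -0.36 to 0.24.

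The second control array carried high values for the dehydrogenases. Rdh7 read 6.17, 8.13 and 6.89 in control and 6.76, 6.94 and 6.41 in cKI, with an interval of the difference from -1.11 to 0.39. Adh1 read 7.88, 9.70 and 7.87 in control and 8.05, 8.95 and 8.52 in cKI, with an interval from -0.78 to 0.83. That same array had the highest stromal and leukocyte marker means of its group, 6.49 and 6.79, where the lowest control arrays had 5.48 and 5.73. It also had the highest Gata4, Lct and Fabp1 of its group, 7.22, 6.95 and 5.79, and the lowest Slc10a2, 9.89. The ileal gene Fabp6 went the other way and was highest there too, at 12.56. The part of other cells or of regional identity was not tested. Without the second control array the Adh1 difference was 0.63 (limma, adjusted p = 0.331) and that of Rdh7 changed sign to 0.17 (adjusted p = 0.849), so neither passed either way. Aldh1a1 read 9.14, 9.53 and 8.58 in cKI and 9.14, 9.72 and 8.84 in control, with an interval from -0.71 to 0.42.

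The regional difference was compared with the knockin difference in 1 test, as these rest on separate arrays. The regional difference was the larger for 7 of the 9 genes, where 9.23% of all genes tested passed in either direction, 6.41% as larger and 2.83% as smaller. It was also the larger for Gata4 itself, with a gap of 2.55 (limma, adjusted p = 3.23e-05). The gap was 4.77 for Adh6a, 4.62 for Rdh7, 4.61 for Adh1, 2.72 for Rbp2, 2.04 for Aldh1a1, 1.76 for Lrat and 1.55 for Scarb1. The weakest of the 7 was Rbp2 (limma, adjusted p = 0.0156). Bco1 had a gap of -0.65 and did not pass (limma, adjusted p = 0.0894), although it did after quantile normalization (adjusted p = 0.049) and with array weights (adjusted p = 0.0361). Isx had a gap of -0.01 (limma, adjusted p = 0.984). Set directly against wild-type jejunum, cKI ileum was lower for the same 7 genes, where 41.8% of all genes tested passed, 25.5% as higher and 16.3% as lower. Bco1 differed there by -0.04 and Isx by 0.11, and neither passed. Gata4 was lower there too, by a log2 difference of -1.33 ± 0.18 (limma, adjusted p = 6.64e-05). Gata4 transcript in cKI ileum thus stayed under its jejunal level, and the part of this in the gaps was not tested.

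**Figure D2:**
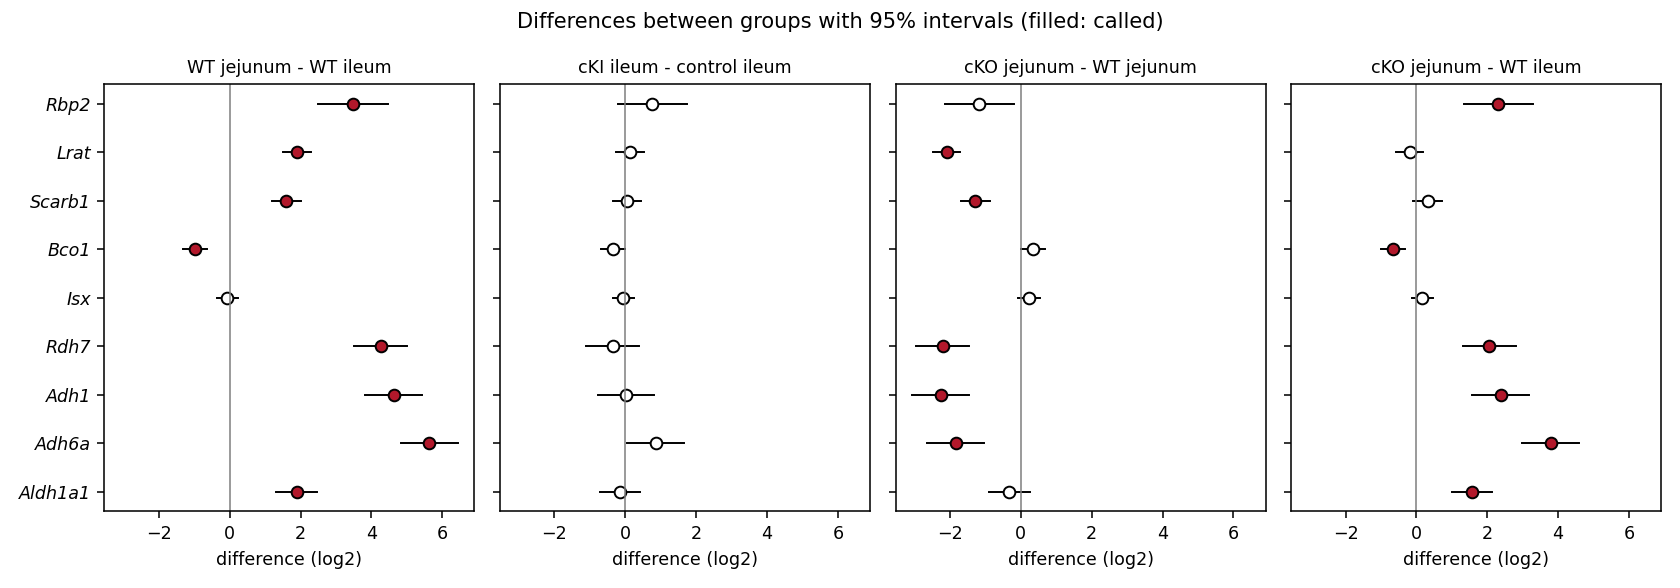
Log2 differences between groups (x axis) with 95% intervals for the 9 genes (y axis), filled where the test passed. Neighbouring panels share arrays. In jejunum against ileum 8 points are filled, in cKI against control none, and in the arrays labelled cKO against wild-type ileum the dehydrogenases, Rbp2 and Bco1 are filled.

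In the arrays labelled cKO, 5 of the 9 genes were lower than in wild-type jejunum and 4 did not pass, where 12.8% of all genes tested passed in either direction and 7.65% as lower. The 5 were Lrat, Scarb1, Rdh7, Adh1 and Adh6a. Directions here take the label as given, since Gata4 transcript was not lower on these arrays. The comparison shares its wild-type arrays with the regional one, so a chance deviation of those arrays enters both, and it also sets mice labelled cKO against a CD1 wild type that is not named as their control.

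Lrat fell, and no difference from wild-type ileum was detected. It read 6.69, 6.54 and 6.59 in the arrays labelled cKO, below wild-type jejunum by a log2 difference of -2.10 ± 0.18, a 4.27-fold fall (limma, adjusted p = 2.83e-06). Against wild-type ileum the difference was -0.20 with an interval from -0.58 to 0.19 (limma, adjusted p = 0.601). Scarb1 read 6, 5.74 and 5.94, lower than wild-type jejunum by a log2 difference of -1.28 ± 0.19, or 2.44-fold (limma, adjusted p = 0.000344). It stood 0.32 above wild-type ileum, with an interval from -0.08 to 0.72 (limma, adjusted p = 0.381), although its 3 arrays labelled cKO lay above all 3 ileal ones.

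Rdh7, Adh1 and Adh6a took middle places, below wild-type jejunum and above wild-type ileum, and passed both tests. Of these, Adh6a lay nearer to wild-type jejunum than to wild-type ileum, a place that Rbp2 shared although its fall did not pass. Rdh7 read 7.59, 7.09 and 6.90 in the arrays labelled cKO, with a difference from jejunum of -2.20 ± 0.35, or 4.60-fold (limma, adjusted p = 0.000682). From wild-type ileum it differed by 2.06 ± 0.35, or 4.17-fold (limma, adjusted p = 0.0035). Adh1 read 9.59, 9.15 and 9.46. Its differences were -2.26 ± 0.38 from jejunum, 4.78-fold (limma, adjusted p = 0.000939), and 2.37 ± 0.38 from ileum, 5.18-fold (adjusted p = 0.00222). Adh6a read 9.73, 8.66 and 9.71. It was lower than in jejunum by a log2 difference of -1.84 ± 0.38, 3.59-fold (limma, adjusted p = 0.0041), and remained higher than in ileum by 3.79 ± 0.38, 13.8-fold (adjusted p = 4.57e-05).

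Rbp2 and Aldh1a1 were not shown to fall. Rbp2 read 11.99, 10.77 and 11.96 in the arrays labelled cKO, all under the 3 jejunal arrays. Its difference of -1.17 had an interval from -2.15 to -0.19 and did not pass the test over all genes (limma, adjusted p = 0.115), although with array weights it was -1.42 and did (adjusted p = 0.0418). Above wild-type ileum Rbp2 stood by 2.31 ± 0.46, or 4.97-fold (limma, adjusted p = 0.00898), which missed the threshold without the second wild-type ileum array (adjusted p = 0.0533). Aldh1a1 read 10.81, 10.17 and 10.75, overlapping wild-type jejunum, with a difference of -0.32 and an interval from -0.89 to 0.25 (limma, adjusted p = 0.496). From wild-type ileum it differed by 1.57 ± 0.27, or 2.96-fold (limma, adjusted p = 0.00339).

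Bco1 read 5.15, 4.99 and 5.56 in the arrays labelled cKO, and all 3 lay above the jejunal arrays, but the difference of 0.34 had an interval from -0.0037 to 0.68 and did not pass (limma, adjusted p = 0.202). Goblet markers averaged 11.3 there and 4 of 6 were higher than in wild-type jejunum, and again their part was not tested. Bco1 was lower than in wild-type ileum by a log2 difference of -0.65 ± 0.16 (limma, adjusted p = 0.0276). That call was lost when any 1 of the 3 wild-type ileum arrays or the first or second array labelled cKO was left out, with adjusted p from 0.0702 to 0.0884. Isx read 9.63, 9.72 and 9.96, with a difference from jejunum of 0.23 and an interval from -0.07 to 0.53 (limma, adjusted p = 0.337). Against wild-type ileum as a whole, 5 of the 9 genes were higher in the arrays labelled cKO, 1 was lower and 3 did not pass, where 5.1% of all genes tested passed, 3.26% as higher and 1.84% as lower.

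The control and wild-type ileum, both with no Gata4 change named in the labels, differed widely over all genes tested, and not only for these genes. Gata4 itself was higher in control by 1.22 ± 0.18, or 2.33-fold (limma, adjusted p = 0.000284), with all 3 control arrays above those of the wild type. Rdh7, Adh1 and Adh6a were higher and Bco1 was lower in control, and 5 of the 9 did not pass, where 27.9% of all genes tested passed, 19.3% as higher and 8.61% as lower. Of the calls over all genes 69.1% were higher, but only 47.9% after quantile normalization. Rdh7 was higher in control by 1.93 ± 0.35 (limma, adjusted p = 0.00108), Adh1 by 1.46 ± 0.38 (adjusted p = 0.00999) and Adh6a by 1.96 ± 0.38 (adjusted p = 0.00153). Every control array lay above every wild-type ileum array for these 3 of the 9 genes, a share near the 29.4% of all genes tested. Leaving out the second control array gave 1.40, 0.85 and 1.5, which still passed (limma, adjusted p = 0.00148, 0.0171 and 0.00593). Bco1 was lower in control by a log2 difference of -0.69 ± 0.16 (limma, adjusted p = 0.005). Goblet markers did not fall with Bco1 here. They averaged 11.78 in control and 11.69 in wild-type ileum, with 3 of 6 higher and 1 lower in control. Stromal markers averaged higher in control, with 3 of 9 higher and 1 lower, as did leukocyte markers, with 2 of 9 higher, and their part was not tested. For Rdh7 the 1.93 between these 2 ileal groups stands beside 2.06 for the arrays labelled cKO against wild-type ileum, and the 2 comparisons share the wild-type ileum arrays. Lrat in control, at 6.92, 7.24 and 6.68, overlapped wild-type ileum.

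Ordered by mean level over the 5 groups, 7 genes had wild-type jejunum at the top and Bco1 had wild-type ileum there. For 6 of these 7 the arrays of the top group did not overlap those of the next, the exception being Aldh1a1, whose next group was the jejunum labelled cKO. The order was taken from these same means, and its share over all genes was not computed, so it is a description only. For Lrat the 4 lower groups overlapped from each neighbour to the next, from cKI at 7.08 ± 0.20 (SD, n = 3) through control at 6.95 ± 0.28 and wild-type ileum at 6.80 ± 0.28 to the jejunum labelled cKO at 6.61 ± 0.08. Scarb1 came down in steps without overlap from 7.17 ± 0.44 in wild-type jejunum to 5.89 ± 0.14 in the arrays labelled cKO, 5.57 ± 0.03 in wild-type ileum and 5.38 ± 0.18 in cKI, whose arrays overlapped those of control at 5.32 ± 0.28. Its step from the arrays labelled cKO to wild-type ileum did not pass (limma, adjusted p = 0.381), and that from wild-type ileum to cKI was not tested. Adh1 ran from 11.66 ± 0.20 over 9.40 ± 0.23, 8.51 ± 0.45 in cKI and 8.48 ± 1.06 in control to 7.03 ± 0.25 in wild-type ileum, and of these steps only that between cKI and control had overlapping arrays. The Adh1 step from the arrays labelled cKO to cKI was not tested. Isx spanned 9.54 ± 0.08 in wild-type jejunum to 9.77 ± 0.17 in the arrays labelled cKO, and each pair of neighbours overlapped.

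The rest of the pathway was read from 5 lists with 68 other genes, of which 64 were named on the array and 45 passed the level filter. Between wild-type jejunum and ileum 20 were higher, 3 were lower and 22 did not pass, with a median difference of 0.37 against 0.00 over all genes tested. Retinoid uptake, carrier and ester genes had 7 of 12 higher and 1 lower, and retinol and retinal oxidoreductases 7 of 15 higher and 1 lower. Aldehyde dehydrogenases had 4 of 7 higher, other alcohol dehydrogenases 2 of 4 higher, and genes of retinoic acid binding, breakdown and reception 0 of 7 higher and 1 lower.

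Cd36, a fatty acid and carotenoid receptor, read 8.74, 8.91 and 8.26 in wild-type jejunum and 3.33, 3.02 and 3.04 in wild-type ileum, and was higher in jejunum (limma, adjusted p = 7.71e-08). Its ileal values are under the level filter, so no size is given. In the arrays labelled cKO it was at 3.90, 3.07 and 4.32, again under the filter and lower than in jejunum (limma, adjusted p = 6.73e-07). The arrays labelled cKO overlapped those of wild-type ileum for Cd36, as for Lrat. Rdh10, the main retinol dehydrogenase of the embryo, differed by 0.96 ± 0.10 between jejunum and ileum (limma, adjusted p = 6.61e-06) and by -0.98 ± 0.10 between the arrays labelled cKO and jejunum (adjusted p = 1.37e-05). Dhrs4, a carbonyl reductase that acts on retinal, differed by 1.43 ± 0.11 (limma, adjusted p = 5.44e-07) and -0.76 ± 0.11 (adjusted p = 0.000402) in the same order.

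Plb1, a brush border phospholipase with retinyl ester hydrolase activity, ran against the list. Of its 7 transcript clusters only the brightest on average was read here, and the others are not described singly. Plb1 was lower in jejunum than in ileum by a log2 difference of -1.55 ± 0.46 (limma, adjusted p = 0.0264) and higher in the arrays labelled cKO than in jejunum by 2.09 ± 0.46 (adjusted p = 0.00732). It was also higher in control than in wild-type ileum by 2.30 ± 0.46 (limma, adjusted p = 0.00224). Rarg, a retinoic acid receptor, was lower in jejunum by a log2 difference of -0.57 ± 0.15 (limma, adjusted p = 0.0149), and Rdh1 by -0.79 ± 0.18 (adjusted p = 0.00456).

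**Figure D3:**
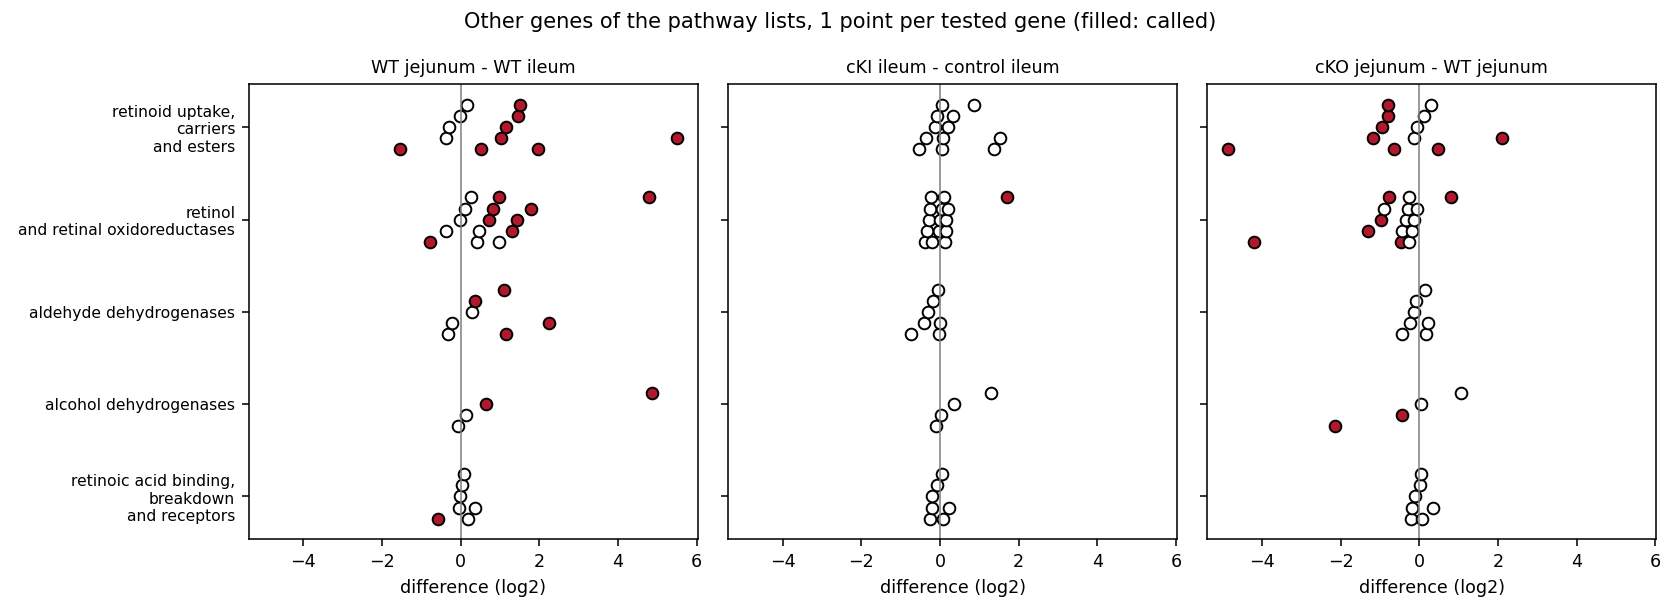
Log2 differences (x axis) of the 45 tested genes of the 5 other lists (y axis), 1 point per gene, filled where the test passed. Aldehyde dehydrogenases have 4 filled points in the first panel and none in the others, and of the retinoic acid binding, breakdown and receptor genes only Rarg is filled, in the first panel.

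In the arrays labelled cKO, 13 of the 45 were lower than in wild-type jejunum, 3 were higher (Plb1, Rdh1 and Stra6l) and 29 did not pass, with a median of -0.19 against -0.03 over all genes tested. The lower ones were 6 of 12 uptake, carrier and ester genes, 5 of 15 oxidoreductases and 2 of 4 alcohol dehydrogenases, and none of the 7 aldehyde dehydrogenases or 7 retinoic acid genes passed. Aldh1a7, a close relative of Aldh1a1 and its neighbour on the chromosome, had a difference of 0.16 (limma, adjusted p = 0.842) there, and was higher than in wild-type ileum by 2.42 ± 0.37 (adjusted p = 0.00177). Aldh1a1 and Aldh1a7 could share probes, which was not examined, so their values may not be independent. Against wild-type ileum, 6 of the 45 were higher, none was lower and 39 did not pass. In the knockin comparison 1 of 45 was higher, Hsd17b6, and 44 did not pass.

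The members sit among relatives. In chromosome order, read from RefSeq names only, Adh7, Adh1, Adh6a, Adh6b, Adh4 and Adh5 form a cluster, and Rdh7 lies in another with Rdh1, Rdh9, Rdh16, Rdh19, Rdh16f2, Sdr9c7 and Hsd17b6. These neighbours were taken by position after values had been seen, and near-identical copies can share probes, so values of neighbours are uncertain where sequence is shared. Adh7, Adh6b and Sdr9c7 did not pass the level filter.

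Adh4, which oxidises retinol and other alcohols, read 9.38, 9.30 and 9.22 in wild-type jejunum and 4.37, 4.38 and 4.54 in wild-type ileum, the latter under the filter. Like Adh1 and Adh6a it was at a middle level in the arrays labelled cKO, at 7.43, 6.27 and 7.76, lower than jejunum by a log2 difference of -2.14 ± 0.40 (limma, adjusted p = 0.0022) and higher than ileum (adjusted p = 0.00132). Adh5, the widely expressed formaldehyde-clearing member at the end of the cluster, had a regional difference of 0.65 ± 0.12 (limma, adjusted p = 0.00137) and one of -0.43 ± 0.12 in the arrays labelled cKO (adjusted p = 0.0314). Both differences of Adh5 were thus smaller than those of Adh1, Adh6a and Adh4, a gap that was not tested.

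Hsd17b6, a retinol and steroid dehydrogenase at the far end of the Rdh cluster, read 10.04, 9.75 and 9.75 in wild-type jejunum and 5.34, 4.77 and 5.05 in wild-type ileum, a difference of 4.80 ± 0.36 (limma, adjusted p = 2.97e-07). In the arrays labelled cKO it read 6.20, 4.56 and 6.20, a difference from jejunum of -4.20 ± 0.36 (limma, adjusted p = 2.83e-06), against -2.20 for Rdh7. It read 7.31, 8.15 and 7.09 in cKI and 5.78, 5.65 and 6.01 in control ileum, groups that did not overlap, with a difference of 1.70 ± 0.36 (limma, adjusted p = 0.0475). That call lay at the threshold and was lost without any 1 of the 6 arrays (adjusted p from 0.0651 to 0.13), with the replicate number as a block over all arrays (0.0591), after quantile normalization (0.0517), with no filter (0.0545), with eBayes trend (0.0728) and with only the 6 arrays fitted (0.0605). It held with the block within the cKI and control pair (adjusted p = 0.0111) and with array weights (0.00807). On the other side of Rdh7, Rdh16f2 was higher in jejunum by 1.79 ± 0.25 (limma, adjusted p = 0.000107) and Rdh16 by 1.31 ± 0.41 (adjusted p = 0.0335), whereas Rdh19 and Rdh9 did not pass (adjusted p = 0.135 and 0.0509). Rdh1, at the other end, was the 1 gene of the cluster that was lower in jejunum and higher in the arrays labelled cKO, by 0.81 ± 0.18 (limma, adjusted p = 0.00678). The ileal means of Rdh16f2 and Rdh16 and the jejunal mean of Rdh1 are under the level filter, so these sizes are measured differences only.

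**Figure D4:**
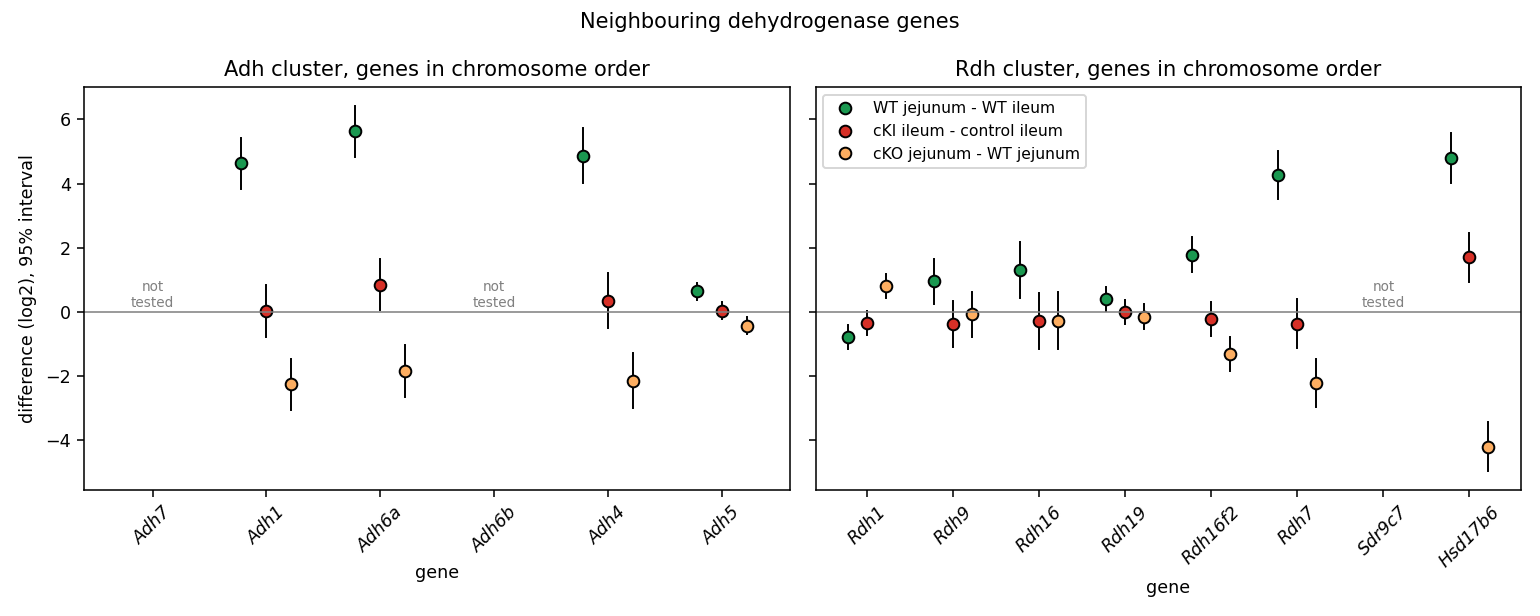
Log2 differences (y axis) with 95% intervals for genes of the Adh and Rdh clusters, in chromosome order (x axis, not to scale). Adh1, Adh6a, Rdh7 and Hsd17b6 have regional differences above 4, as has Adh4 against ileal values under the level filter, and those of Adh5, Rdh9 and Rdh19 are under 1.

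For each member the tested genes with the most similar profile over the 5 group means, by root mean square (RMS) of the centred log2 values, were named. For Lrat these were Agpat3, an acyltransferase of phospholipid synthesis (RMS 0.0733), and Cyp2c23 (0.12). Rbp2 was closest to Creb3l3, a transcription factor of lipid metabolism (0.19), and Slc2a5, the fructose transporter (0.34). Adh1 was closest to its neighbour Adh4 (0.153) and Apoc3 (0.248), an apolipoprotein, which were also the nearest of Adh6a (0.387 and 0.359). Rdh7 had Cyp2d26 (0.385) and Apoc3 (0.395), Aldh1a1 had Prap1 (0.0618) and Acot2 (0.147), and Scarb1 had Osbpl3 (0.0758) and Sgk1 (0.113). Bco1 had Gfpt1 (0.0664) and Spdef (0.0718), a transcription factor of goblet cells. Isx, whose group means hardly vary, had Col2a1 (0.0132) and Il27 (0.0137). Among members the closest pairs were Rdh7 with Adh1 (0.305) and Lrat with Scarb1 (0.36), and such likeness over 5 means carries no test.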

How the data were processed

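Per the labels' protocols, epithelial RNA was purified on RNeasy Mini columns (Qiagen) and biotin-labelled with the Affymetrix whole transcript sense assay. The authors deposited log2 values, made in Partek per the submitters' processing notes. Background correction, normalization and summarization are not given in the sources used here, and the scale was read from the values. Of 35556 transcript clusters, 21789 carried 1 symbol, 1621 several and 12146 none, and only the first kind was used. Among several clusters of a gene (999 genes), the brightest on average was kept. Genes with a largest group mean above 4.91, the median of all values, were tested (11784, with 8154 removed).

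Group means were estimated from all 15 arrays together with limma 3.58.1 in R 4.3.3 (10 residual degrees of freedom, eBayes, two-sided tests). Benjamini-Hochberg adjustment ran over all genes tested at a threshold of 0.05. The steps were tested on simulated independent values with no strain or pairing structure, unlike these data may have, and no result here rests on that run. The 9 genes and all lists were chosen with earlier results of these data known. Beyond the 9 genes and the region markers with Gata4, the text names up to 4 passing list genes with the smallest p per direction and comparison, the 2 nearest profiles per gene, and cluster neighbours. Alpi and Pla2g2a, of the cell type markers, are named for values already seen.

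Equal replicate numbers correlated, after removal of group means, by 0.334, 0.216 and 0.161 between the wild-type regions, and between cKI and control ileum by 0.128, 0.177 and 0.258. All of these exceeded the limit of 0.1 used here for pairing, which rests on the data and not the labels. Not every value did for cKO and wild-type jejunum (0.185, -0.0247 and -0.0732) or control and wild-type ileum (-0.103, -0.265 and -0.00722). The same held for cKI ileum and wild-type jejunum (-0.0574, 0.0151 and 0.101) and for cKO jejunum and wild-type ileum (0.474, 0.257 and 0.058). The largest value of all was thus between groups labelled with different genotypes, so a correlation over the limit does not show that arrays were paired. Pla2g2a, a Paneth cell gene, was high on the second array of both wild-type regions. It read 8.31, 12.86 and 8.73 in ileum and 7.73, 12.37 and 7.46 in jejunum. In the arrays labelled cKO it read 11.53, 11.88 and 12.59, in control 9.09, 8 and 8.58, and in cKI 9.27, 9.28 and 8.88. Whether shared animals or strain underlie these values was not tested. Alternatives covered the replicate block, quantile normalization, median centring, the filter, clusters averaged, array weights, eBayes with trend, only the arrays compared, and leaving out each array. A planned comparison of protein sequences was not run.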

Additional observations from a re-analysis of the deposited data

How the results depend on the processing

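Over 7 comparisons, 37 results of the 9 genes passed and 26 did not. Under alternatives, 7 of 609 values of the former no longer passed and none changed sign, while 4 of 410 values of the latter passed and 27 changed sign. The replicate block, over all arrays or within pairs, changed no count of the 9 genes. Of 114 such counts 13 differed from the reported ones. That of cKI against control went from 0 to 1 with array weights, and the other 12 were within 1.5 times: 7 to 8 for the region (8 reported), 5 to 6 for cKO against jejunum (5), 4 to 6 for cKO against ileum (6), 3 to 4 for control against wild-type ileum (4) and 7 to 8 for region minus knockin (7). For cKI against control, 1 other pathway gene passed, but 0 with the replicate block over all arrays, quantile normalization, no filter, eBayes with trend or only the arrays compared, 4 with the replicate block within pairs, 5 with array weights, and 0 to 1 with an array left out. Over all genes that comparison had 90 calls, but 257 with the replicate block within pairs, 52 with no filter, 766 with array weights, 19 with only the arrays compared and 20 to 176 with an array left out (20 without cKI array 1, 38 without cKI array 3, 42 and 39 without control arrays 2 and 3, 176 without control array 1). Array weights gave 3967 calls for the region, 2185 for region minus knockin and 20 pathway genes for control against wild-type ileum (8 to 14 with an array left out). With only the arrays compared, the cKO comparisons had 979 calls against jejunum and 299 against ileum, and with an array left out 984 to 1532 (984 and 995 without wild-type jejunum arrays 1 and 2) and 279 to 592 (279 and 372 without wild-type ileum arrays 2 and 3). The cause was not tested.

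Sign changes were all among results that did not pass. With array weights, cKI minus control was 0.14 for Isx, -0.18 for Scarb1 and 0.10 for Aldh1a1, and after quantile normalization -0.023 for Adh1. Array weights also gave 0.052 for Bco1 in cKI minus jejunum, and -0.051 for Isx and -0.093 for Aldh1a1 in control minus wild-type ileum. With an array left out, cKI minus control ran from -0.81 to 0.17 for Rdh7, -0.24 to 0.093 for Isx, -0.058 to 0.21 for Scarb1, -0.37 to 0.10 for Aldh1a1 and -0.28 to 0.63 for Adh1, and cKI minus jejunum from -0.17 to 0.021 for Bco1. Control minus wild-type ileum ran from -0.0013 to 0.28 for Lrat, -0.47 to 0.25 for Rbp2, -0.050 to 0.28 for Isx and -0.019 to 0.42 for Aldh1a1, and region minus knockin from -0.16 to 0.17 for Isx. Rescaling moved the split of calls: quantile normalization made 52% of regional calls higher, where 62.8% were, 33.7% for the knockin (44.4%), 51.2% for cKO against jejunum (40.3%) and 47.9% for control against wild-type ileum (69.1%), where it also moved the median of all genes from 0.08 to -0.02. Signals near the filter, as for Bco1, limit the size that can be read.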

Other observations

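On some arrays most of the 9 genes lay on the same side of their group means. On the second control ileum array they averaged 0.45 above their group means, with 7 of 9 above, while the median over all genes tested was -0.01. On the second array labelled cKO they averaged -0.31, with 0 of 9 above, and on the second wild-type jejunum array 0.15, with 9 of 9 above. These are values of single arrays and carry no test.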
